A study of Mus musculus with 14 samples.

Results

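The genes of translation, meaning the initiation factors, the elongation factors and the aminoacyl-tRNA synthetases, were taken by symbol from arrays of mouse lung tumors driven by c-Myc. A probe set belonged to the set when its one annotated symbol began with Eif or Eef and a digit, or was that of a cytosolic or mitochondrial synthetase. This gave 93 of 12422 probe sets and 71 of 8251 gene symbols. The 71 genes were 40 initiation factor genes (with their kinases and binding proteins), 9 elongation factor genes (2 of them regulators) and 22 synthetase genes. One further probe set carried 3 symbols, among them Eif4a3, and was left out. Eif4g1 was not analysed here.

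Protein synthesis starts when eIF2 carries the initiator tRNA to the small ribosomal subunit, which eIF3 holds ready, while the eIF4 factors bind the mRNA cap and unwind the leader. After each round eIF2 is recharged with GTP by eIF2B, and stress kinases that phosphorylate eIF2 block that step. Elongation factors then deliver charged tRNAs and move the ribosome along, and the synthetases load each tRNA with its amino acid. The transcription factor c-Myc is known in many cell types for raising the genes of cell growth, those of ribosomes and translation among them.

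Total RNA of 14 tissue samples was hybridized to Affymetrix Murine Genome U74v2 arrays, which hold several short oligonucleotides for each transcript. The control group was normal lung of 4 non-transgenic mice. The tumors were papillary adenocarcinomas of SPC/c-Myc-transgenic mice, and comprised 3 pools of 3 to 4 small tumors of about 1 mm (each pool from 1 animal), 4 middle-sized tumors of 4 to 5 mm and 3 large tumors of at least 10 mm. All mice were 9 to 13 months old, and the transgenic line was kept hemizygous on the CD2F1-(DBA/2xBalb/C) background. The transgene is driven by the surfactant protein C promoter, which directs expression to the respiratory epithelium, and tumor tissue was set against whole lung with all of its other cell types. By the methods each array was made from its own animal, and every tumor size was set against these 4 lungs.

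The Myc probe set read 35.6, 24.1, 26.3 and 32.9 in the control lungs and 325 to 2165 in the tumors (log2 fold change 4.04, SE 0.28, adjusted p = 5.02e-08). Signals are the linear MAS 5 intensities of the authors, scaled to a target of 250 on each array, and 70 is the limit that the methods set for an expressed gene. All control readings of Myc lay below 70 and were set to 70 in the fit. They had no spread there, the log2 fold change understates the difference, and Myc entered the test through the tumors alone. Middle-sized tumor 3 stood apart, since 3125 of its values (25.2%) were listed at 0 or next to 0 and were treated as missing, and 57 of the 63 genes tested below kept a value there. Middle-sized tumor 1 stood apart in its Myc signal, the lowest of the tumors at 325. Markers of other cell types differed strongly between the tissues: the summed signal of 12 endothelial markers was 21384 to 26862 in control lung and 2029 to 3582 in tumors, that of 12 cardiac muscle markers 5821 to 11652 and 502 to 752, and that of 10 leukocyte markers 5555 to 7174 and 2797 to 7123. The summed signal of 7 epithelial markers overlapped, with 19136 to 33054 in control lung and 21172 to 36263 in tumors. Of 6 tested, 2 were higher and none lower, with a median log2 fold change of 0.18. Of the endothelial markers 11 of 12 tested fell, of the cardiac markers 10 of 10, of the leukocyte markers 4 of 8 and of 4 erythroid markers 4. Over all probe sets 23.6% were called higher and 21% lower. The defining cardiac gene Myl7 read 1052 to 2119.6 in control lung and 4.31 to 32.7 in tumors. The part of cell composition in the results below was not tested, and in bulk tissue fewer cells of a type and less RNA per cell cannot be told apart.

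Most genes of translation were higher in the tumors than in control lung. Of the 63 genes that passed the filter on low signals (at least 70 on at least 3 arrays), 37 were higher and 2 lower in all tumors at an adjusted p under 0.05, and 24 were not called. Over all 6914 probe sets tested, 23.6% were called higher and 21% lower. On the log2 scale the median change was 0.50 over the 63 genes and 0.04 over all probe sets. The rises were mostly moderate, since the 10 largest lay between 1.02 and 1.87 on the log2 scale and the other 27 between 0.38 and 0.96. In limma, 44 of the 63 had an unadjusted p under 0.05, as had 51.3% of all probe sets. One of the 37, Eif3f, was below 70 on every control array and entered the test through the tumors alone.

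**Figure D1:**
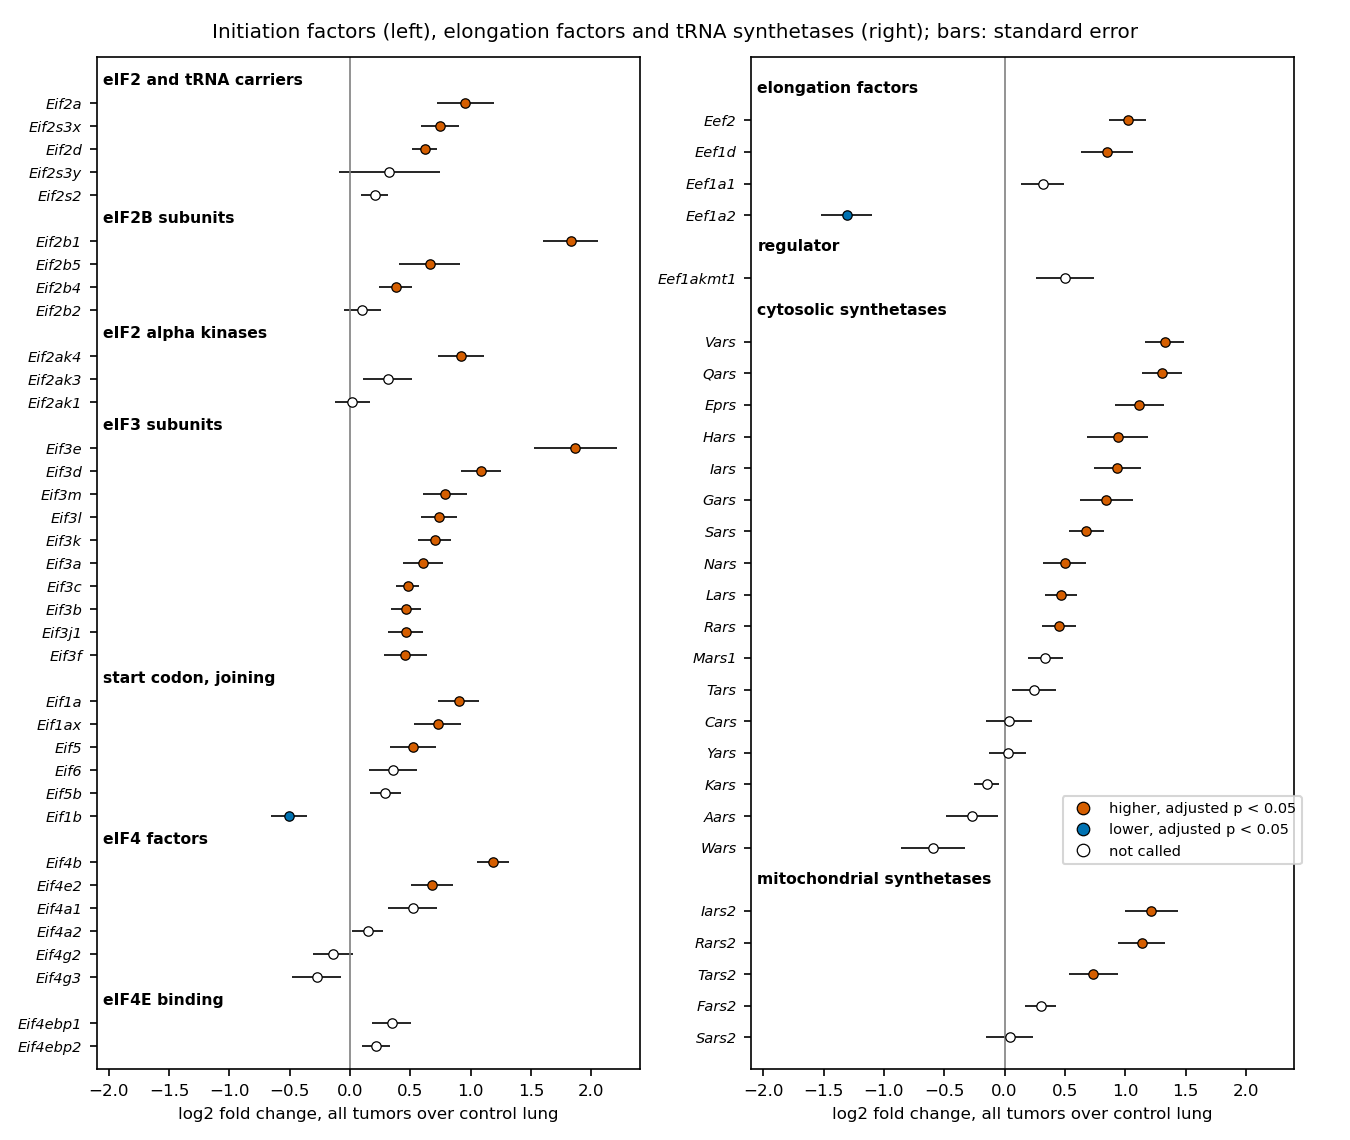
Log2 fold change of all tumors over control lung (x axis) for the 63 genes tested, sorted within each functional group, with the standard error as a horizontal bar. Orange points were called higher, blue points lower and open points not called. The 10 eIF3 subunits are orange, among them Eif3f, which was below 70 on every control array, and the blue points are Eif1b and Eef1a2.

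Single arrays were compared next. In 11 of the 63 genes (17.5%) every tumor lay above every control lung, against 10.2% of all probe sets. These were Eif2b1, Eif2d, Eif3b, Eif3c, Eif3d, Eif3k, Eif4b, Eef2, Qars, Vars and Rars2. Setting middle-sized tumor 1 aside, 27 of 63 (42.9%) separated in this way, against 14.7% of all probe sets. Every tumor lay below every control lung in 1 gene, Eef1a2 (1.59%), against 12.2% of all probe sets.

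Middle-sized tumor 1 was the only tumor whose genes of translation stayed near the level of control lung. The median log2 difference of the 63 genes from the control mean was 0.05 on that array, 0.41 on middle-sized tumor 3 (over 57 genes) and 0.57 to 0.67 on the other 8 tumors. On the control arrays themselves it was 0.00, 0.04, 0.11 and -0.08. Of the 37 genes called higher, 23 were no higher in middle-sized tumor 1 than in the highest control lung, and at most 5 on any other tumor. It was the lowest tumor for 37 of the 63 genes. Neither count was made over all probe sets, so whether they are particular to these genes was not tested. Over all probe sets, every tumor lay above every control lung in 10.2%, and in 14.7% with this array set aside.

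The Myc signal moved with this pattern. It was 325 in middle-sized tumor 1, 451 in middle-sized tumor 3 and 759.6 to 2165 in the other 8 tumors. Among those 8 the median of the translation genes stayed within 0.57 to 0.67 although Myc varied, with 759.6 and 0.60 in middle-sized tumor 4 and 2165 and 0.57 in large tumor 1. The summed signal of 12 proliferation markers had another order, with 2545 in middle-sized tumor 1 but 1876 in middle-sized tumor 4, 1786 in large tumor 3 and 1212 to 1362 in control lung. The summed signal of 12 endothelial markers was 3106 in middle-sized tumor 1, with 2029 to 3582 over the tumors and 21384 to 26862 in control lung. Its leukocyte marker sum was 6495, inside the control range of 5555 to 7174, with 2797 to 7123 over the tumors. Its sum of alveolar and airway epithelial markers was 31774, with 21172 to 36263 over the tumors and 19136 to 33054 in control lung. A few genes of translation were as high in this tumor as in the others, with 787 for Vars, 328 for Eif2d and 138 for Eif3f. Leaving this array out, 41 of 63 genes were called higher in all tumors, and 33 instead of 22 in the middle-sized tumors. With this array, 23.6% and 15.8% of all probe sets were called higher in these comparisons. The shares without it are not given here, so a gain particular to the genes of translation was not tested. The part of Myc and of other cell types in this pattern was not tested.

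**Figure D2:**
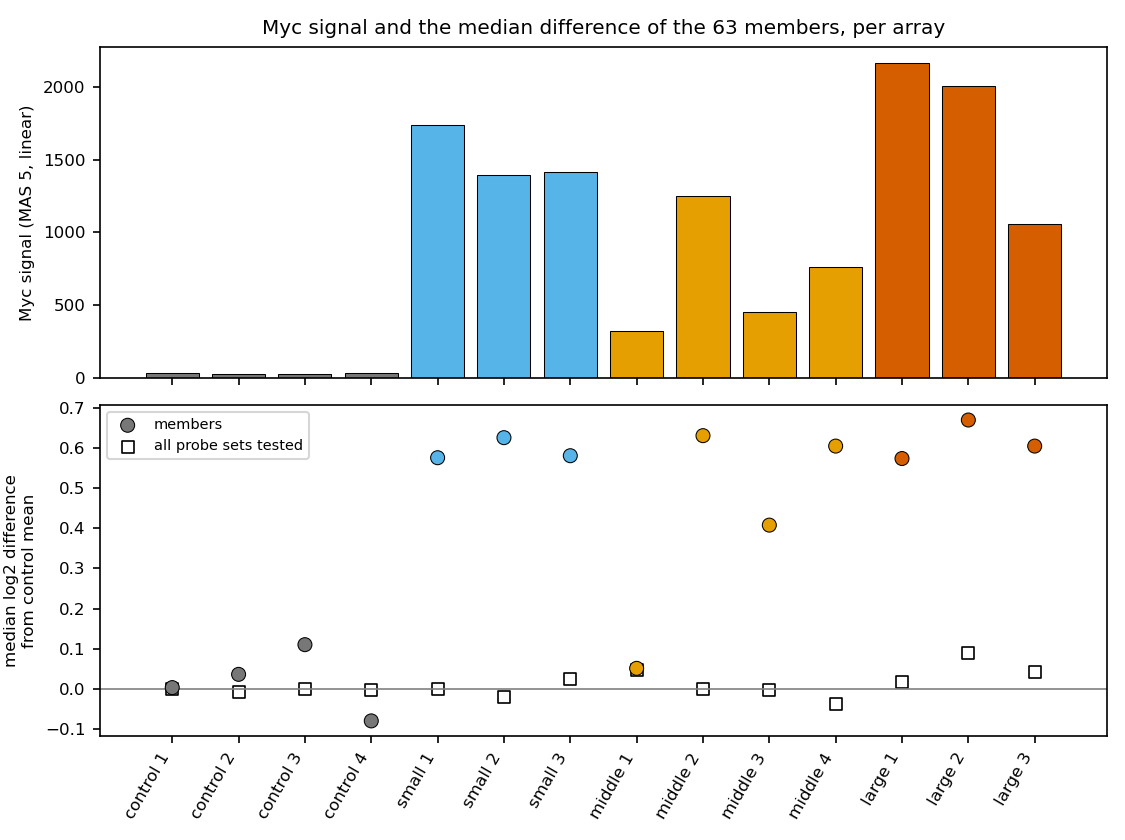
Upper panel, Myc signal (MAS 5, linear) on each of the 14 arrays. Lower panel, median log2 difference from the control mean of the 63 genes of translation (filled circles) and of all probe sets tested (open squares). Middle-sized tumor 1 has the lowest Myc signal of the tumors and lies at 0.05, beside the controls, while the open squares stay within -0.04 and 0.09 on all arrays.

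The first step of initiation is the delivery of the initiator tRNA. Eif2s3x encodes the gamma subunit of eIF2, which binds the tRNA and GTP, and it read 1067, 1235, 1512 and 1055 in the control lungs, 2781, 1923 and 1987 in the small pools, 1289.8, 1986, 1675 and 1950.5 in the middle-sized tumors and 2180.1, 2767 and 1755 in the large tumors. It rose (log2 fold change 0.74, SE 0.16, adjusted p = 0.00163), and 9 of 10 tumors lay above every control lung. Eif2a and Eif2d encode factors that bring initiator tRNA to the ribosome by routes other than eIF2. Eif2a was 109.7 to 149.7 in control lung and 126 lowest, 290.4 median and 323 highest over the 10 tumors (log2 fold change 0.96, SE 0.23, adjusted p = 0.00403), with 9 of 10 above all controls. Eif2d was 188 to 219 and 263 to 352 (log2 fold change 0.62, SE 0.11, adjusted p = 0.000274), without overlap. Eif2s2, the beta subunit, stayed at or below 57.7 in control lung and reached 113 in tumors, close to the expression limit of 70, and was not called (log2 fold change 0.20, adjusted p = 0.17).

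Eif2s3y is the copy of Eif2s3x on the Y chromosome. It read 270.3, 213, 7.17 and 148 in the control lungs, 2.11, 268 and 249 in the small pools, 229, 311, 337 and 313 in the middle-sized tumors and 198, 3.84 and 253 in the large tumors. The low readings of control lung 3, small pool 1 and large tumor 2 fell on the same 3 arrays where Xist, the RNA of the inactive X chromosome, exceeded 70, with 159.9, 694 and 931. On the other 11 arrays Xist lay between 6.18 and 27.6. These 3 arrays also held the highest Eif2s3x signal of their groups, 1512, 2781 and 2767. The log2 fold change of Eif2s3y was 0.32 (SE 0.42, adjusted p = 0.568), and the ranges overlapped. Without the 3 arrays the fit called 30 genes of translation higher and 1 lower in all tumors. With all arrays 37 were higher and 2 lower, beside 23.6% and 21% of all probe sets. The setting leaves fewer control lungs, small pools and large tumors, and the part of group size in the lower counts was not tested. The shares of all probe sets without the 3 arrays are not given here.

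**Figure D3:**
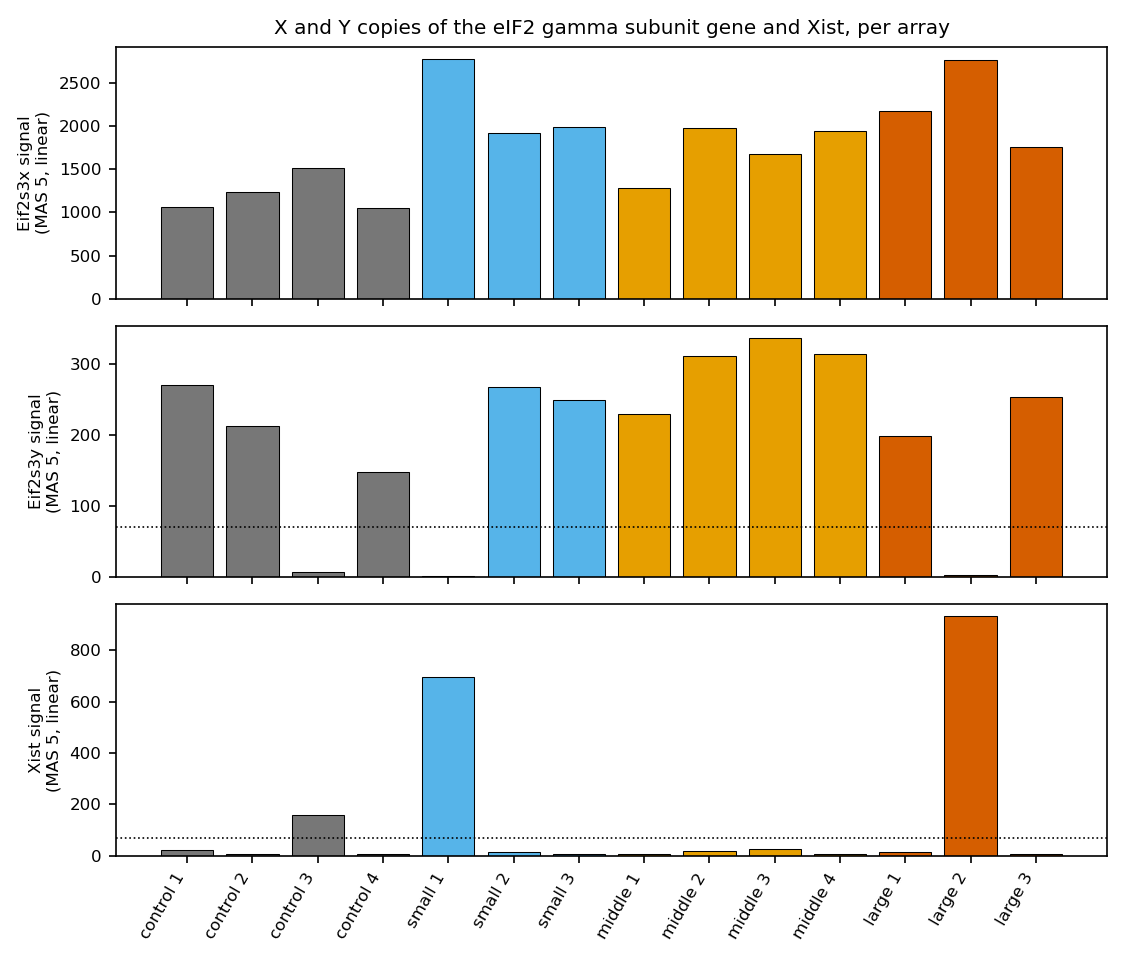
Signals (MAS 5, linear, bars from 0) of Eif2s3x, Eif2s3y and Xist on each of the 14 arrays, coloured by group, with a dotted line at the expression limit of 70 in the lower panels. The 3 arrays without an Eif2s3y bar are the 3 with Xist above the line, and they hold the highest Eif2s3x bar of their groups.

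The exchange factor eIF2B was represented by 4 of its subunits, and 3 of them rose, while 23.6% of all probe sets were called higher. Eif2b1, the alpha subunit through which eIF2B senses phosphorylated eIF2, read 175, 156, 174 and 98.7 in the control lungs, 608, 669 and 666 in the small pools, 237, 602, 455 and 627 in the middle-sized tumors and 486, 533 and 462 in the large tumors. It rose 3.54-fold between the group means (log2 fold change 1.83, SE 0.23, adjusted p = 1.65e-05), and even middle-sized tumor 1, the lowest, stood above the highest control lung. Eif2b5, the catalytic epsilon subunit, rose less (log2 fold change 0.66, adjusted p = 0.0468), and Eif2b4, the delta subunit, rose by 0.38 (adjusted p = 0.0362). Both calls lie close to the threshold and were lost in 17 and 10 of 29 alternative settings of the floor, scaling, filter, test and arrays. Eif2b2, the beta subunit, was 230.3 to 311 in control lung and 230.3 to 352 in tumors (log2 fold change 0.10, adjusted p = 0.636).

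Of the kinases that phosphorylate eIF2, Eif2ak4, the sensor of uncharged tRNA known as GCN2, rose. It read 64.0, 61.7, 95.9 and 49.4 in the control lungs, 164, 155 and 157 in the small pools, 91.9, 166, 77.7 and 165 in the middle-sized tumors and 164, 141 and 168 in the large tumors. The log2 fold change with signals set to at least 70 was 0.92 (SE 0.19, adjusted p = 0.00138), 8 of 10 tumors lay above every control lung, and control lung 3 was the one control above 70. Eif2ak3, the kinase of the endoplasmic reticulum, and Eif2ak1, the heme-regulated kinase, were not called, with log2 fold changes of 0.31 (adjusted p = 0.236) and 0.02 (adjusted p = 0.936). The antiviral kinase Eif2ak2 reached 79.0 at most and 70 on 2 arrays, and was not tested.

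Of the subunits of eIF3, the large scaffold that binds the small ribosomal subunit, 9 reached 70 on a control array, and these 9 were called higher, with log2 fold changes from 0.46 to 1.87 and a median of 0.70. A further subunit, Eif3f, was also called higher but was below 70 on every control array and passed the filter through the tumors alone. The share of all probe sets called higher was 23.6%. Eif3e read 196, 113, 156 and 152 in the control lungs, 687, 619.8 and 597 in the small pools, 141, 558 and 804 on the 3 middle-sized tumors with a value and 549, 761 and 712 in the large tumors. Its group means differed 3.91-fold (log2 fold change 1.87, SE 0.34, adjusted p = 0.000612), and 8 of the 9 tumors with a value lay far above the controls while middle-sized tumor 1 lay among them. Eif3d, the subunit that can bind the mRNA cap, read 551, 681, 689 and 619 in the control lungs, 1576, 1504 and 1639.6 in the small pools, 780.4, 1612, 1573 and 1137 in the middle-sized tumors and 1371, 1369.7 and 1050.0 in the large tumors. It rose 2.14-fold (log2 fold change 1.08, SE 0.17, adjusted p = 0.000109) without overlap between tumors and controls. The core subunits Eif3a, Eif3b and Eif3c rose by 0.60, 0.46 and 0.48 (adjusted p = 0.00843, 0.00709 and 0.000948). Of these, Eif3c was 1752 to 1951 in control lung and 2368 to 2933 in the tumors, with middle-sized tumor 1 at 2393.

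The other subunits, Eif3k, Eif3l, Eif3m and Eif3j1, rose by 0.70, 0.74, 0.79 and 0.46 (adjusted p = 0.000734, 0.00103, 0.00268 and 0.0172). Eif3k was 1084 to 1385 in control lung and 1420.1 to 2499 in tumors, with no overlap. Eif3f read 53.3, 55.6, 56.3 and 42.4 in the control lungs, 97.9, 81.2 and 110.4 in the small pools, 138, 111 and 58.4 on the 3 middle-sized tumors with a value and 66.1, 88.5 and 121 in the large tumors. Its call (log2 fold change 0.46, adjusted p = 0.0481) was lost in 19 of 29 alternative settings, and all of its control values lay under the limit of 70.

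The start regions of the genes of translation were searched for the E-box CACGTG, the sequence that Myc and its partner Max bind. RefSeq windows of 300 bases (250 before and 50 from the transcript start, GRCm38.p6) were found for 56 of the 71 genes, and both strands were read. The E-box occurred in 13 of the 56 (23.2%) and in 8.09% of all 27025 genes with a window, whether on the array or not. Of the 13, Eef2k, Eif4e, Eif4h and Eif5a were below the filter and not tested. Among tested genes with a window, the E-box occurred in 5 of the 29 called higher and in 4 of the 20 that were not. The 5 include Eif3f, whose call was lost in 19 of 29 alternative settings. The related CACGCG was present in 12 genes (21.4%) and in 10.5% of all genes with a window, with 4 of 29 among the genes called higher and 3 of 20 among the others. A match of letters describes the window and does not show binding. The following lines give 80 bases before and 30 from the start of 4 genes called higher, Eif3f among them, and of Eif1b, which fell, on the strand of the gene, with the E-box in capitals.
Eif3a: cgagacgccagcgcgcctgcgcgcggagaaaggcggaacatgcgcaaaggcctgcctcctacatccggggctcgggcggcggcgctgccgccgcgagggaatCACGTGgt
Eif3f: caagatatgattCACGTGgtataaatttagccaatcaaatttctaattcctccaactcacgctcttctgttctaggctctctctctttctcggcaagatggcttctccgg
Eif3k: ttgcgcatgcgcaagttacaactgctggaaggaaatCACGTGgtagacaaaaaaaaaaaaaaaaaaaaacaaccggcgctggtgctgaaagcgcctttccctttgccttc
Eef2: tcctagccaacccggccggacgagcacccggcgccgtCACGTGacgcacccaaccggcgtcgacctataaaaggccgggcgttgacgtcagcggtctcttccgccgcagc
Eif1b: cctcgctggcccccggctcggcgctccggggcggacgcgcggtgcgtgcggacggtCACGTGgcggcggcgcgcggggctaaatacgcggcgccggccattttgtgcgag
They lie at chr19:60790664-60790773 (minus strand), chr7:108934335-108934444 (plus strand), chr7:28981859-28981968 (minus strand), chr10:81176551-81176660 (plus strand) and chr9:120492526-120492635 (plus strand). The E-box stands after the start in Eif3a and before it in the other 4 genes.

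Among the factors that select the start codon and join the subunits, Eif1a and Eif1ax, which encode forms of the scanning factor eIF1A, rose by 0.90 and 0.73 on the log2 scale (adjusted p = 0.000581 and 0.00783). Eif1a was 315 to 514 in control lung and 482 to 891 in tumors, and middle-sized tumors 1 and 3 lay within the control range. Eif5, which triggers GTP hydrolysis by eIF2, rose by 0.52 (adjusted p = 0.0386), a call lost in 13 of 29 settings. Eif5b, the subunit-joining GTPase, and Eif6, which keeps the large subunit apart, were not called, with 0.29 (adjusted p = 0.0845) and 0.36 (adjusted p = 0.159).

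Eif1b, a close relative of the start-codon factor eIF1, went the other way. It read 873, 803, 864 and 1024 in the control lungs, 604, 659 and 727 in the small pools, 844, 790.4, 606 and 514 in the middle-sized tumors and 707, 511 and 457 in the large tumors. It fell (log2 fold change -0.50, SE 0.15, adjusted p = 0.0122), with middle-sized tumor 1, at 844, inside the control range. The other 9 tumors stayed below 803, the lowest control lung. Without the 3 arrays with Xist above 70, and so with smaller groups, the adjusted p of Eif1b rose to 0.0726.

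The eIF4 factors gave a mixed result, with 2 of 6 tested genes higher and none lower. The shares over all probe sets were 23.6% higher and 21% lower. Eif4b, the cofactor that stimulates the helicase eIF4A, read 896, 1073, 764 and 691 in the control lungs, 2011, 1735 and 2219 in the small pools, 1321, 1918, 1545 and 1766 in the middle-sized tumors and 2259.8, 2398 and 2001 in the large tumors. It rose 2.24-fold (log2 fold change 1.19, SE 0.13, adjusted p = 5.98e-06), the smallest adjusted p of the 63 genes, and no tumor overlapped with a control. Eif4e2, a cap-binding relative of eIF4E that lowers translation, was 74.4, 73.2, 71.8 and 110.1 in control lung and 94.8 to 191 in tumors (log2 fold change 0.68, SE 0.18, adjusted p = 0.00563), and 9 of 10 tumors exceeded the highest control.

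The genes of the eIF4A helicases were not called. Eif4a1 was 252 to 349 in control lung and 253 to 636 in tumors and missed the threshold narrowly (log2 fold change 0.52, SE 0.20, adjusted p = 0.0506). Its paralog Eif4a2 was 2492 to 3059 and 2040.3 to 3488 (log2 fold change 0.15, SE 0.13, adjusted p = 0.394). The scaffold relatives Eif4g2 and Eif4g3 were not called, at -0.14 (adjusted p = 0.532) and -0.28 (adjusted p = 0.295). Eif4e, the cap-binding protein itself, stayed below 70 on every array in both of its probe sets, with 42.2 as the highest value, and Eif4h and Eif4enif1 were below 70 throughout.

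Genes of the proteins that hold eIF4E inactive were not called in all tumors. Eif4ebp1 was 151 to 219 in control lung and 169 to 291 in tumors (log2 fold change 0.34, adjusted p = 0.105). Eif4ebp2 changed by 0.21 (adjusted p = 0.153) in its brightest probe set and was called in the large tumors, at 0.41 (adjusted p = 0.0438), although the middle-sized minus large difference of -0.33 (adjusted p = 0.496) was not called. A second probe set of Eif4ebp2 read 102, 91.7, 48.1 and 85.6 in the control lungs, 60.3, 162 and 262 in the small pools, 123, 102, 70.8 and 120.2 in the middle-sized tumors and 278, 504 and 387 in the large tumors. In the large tumors it was higher by 2.13 (SE 0.36, adjusted p = 0.000388), and its values there lay above all other arrays. The third probe set read 118, 130.0 and 121 in the large tumors, 50.6 to 99.5 in control lung and 13.0 to 62.7 in the other tumors. In the large tumors it was higher than in control lung by 0.67 (SE 0.12, adjusted p = 0.000753). Small pools minus large tumors gave -0.81 (SE 0.13, adjusted p = 0.0677) and middle-sized minus large tumors -0.81 (SE 0.12, adjusted p = 0.0992) among the probe sets above the filter. With all 12422 probe sets tested, both differences were called (adjusted p = 0.043 and 0.0438). All values of the small and middle-sized tumors on this probe set lay below 70 and had been set to 70, so they had no spread. The standard error of its change in all tumors was 0.097 above the filter and 0.079 with all probe sets. These calls between sizes therefore depend on the floor and the filter.

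Elongation factors changed in opposite directions. Eef2, the translocase that moves the ribosome by a codon, read 2763, 3289, 2124 and 2588 in the control lungs, 5441, 4710.2 and 4936 in the small pools, 3547, 5285 and 5809 on the 3 middle-sized tumors with a value and 6430.4, 7469.9 and 5774 in the large tumors. It rose 2.04-fold (log2 fold change 1.02, SE 0.15, adjusted p = 0.000128), with each of the 9 tumors above the controls. Eef1d, a subunit of the exchange factor of eEF1A, read 452, 444, 415 and 589 in the control lungs, 1036, 862 and 806 in the small pools, 429, 1095 and 1063 on the 3 middle-sized tumors with a value and 959.7, 876 and 749 in the large tumors. It rose by 0.85 on the log2 scale (adjusted p = 0.00567), and middle-sized tumor 1 lay within the controls. Both lack a value on middle-sized tumor 3, and both calls were lost when the near-zero values of that array were kept.

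Paralogs that deliver charged tRNA to the ribosome, Eef1a1 and Eef1a2, were each measured by 1 probe set. Eef1a1, the form of most tissues, read 7516, 9506, 5249 and 9036 in the control lungs, 9696, 8100.5 and 9327 in the small pools, 7139, 9822, 9099 and 9409.9 in the middle-sized tumors and 10512, 14014 and 8450.2 in the large tumors, and was not called (log2 fold change 0.31, SE 0.18, adjusted p = 0.168). Eef1a2, the form of heart, skeletal muscle and neurons, read 185, 169, 191 and 357 in the control lungs, 62.8, 68.4 and 24.7 in the small pools, 92.4, 58.5, 101 and 63.9 in the middle-sized tumors and 80.3, 168 and 108 in the large tumors. It fell (log2 fold change -1.31, SE 0.21, adjusted p = 0.000189), and every tumor was below every control lung. By size, its log2 fold change was -1.62 in small pools, -1.39 in middle-sized and -0.93 in large tumors, all called.

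Cardiac muscle markers moved with Eef1a2. Control lung 4, with the highest Eef1a2 signal, also had the highest Myl7 (2119.6, against 1052 to 1507 in the other controls) and Myh6 (1018, against 515 to 832). In tumors Myl7 and Myh6 stayed below 70 on every array, while Eef1a2 read 24.7 to 168. The part of cardiac tissue in the fall of Eef1a2 was not tested.

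**Figure D4:**
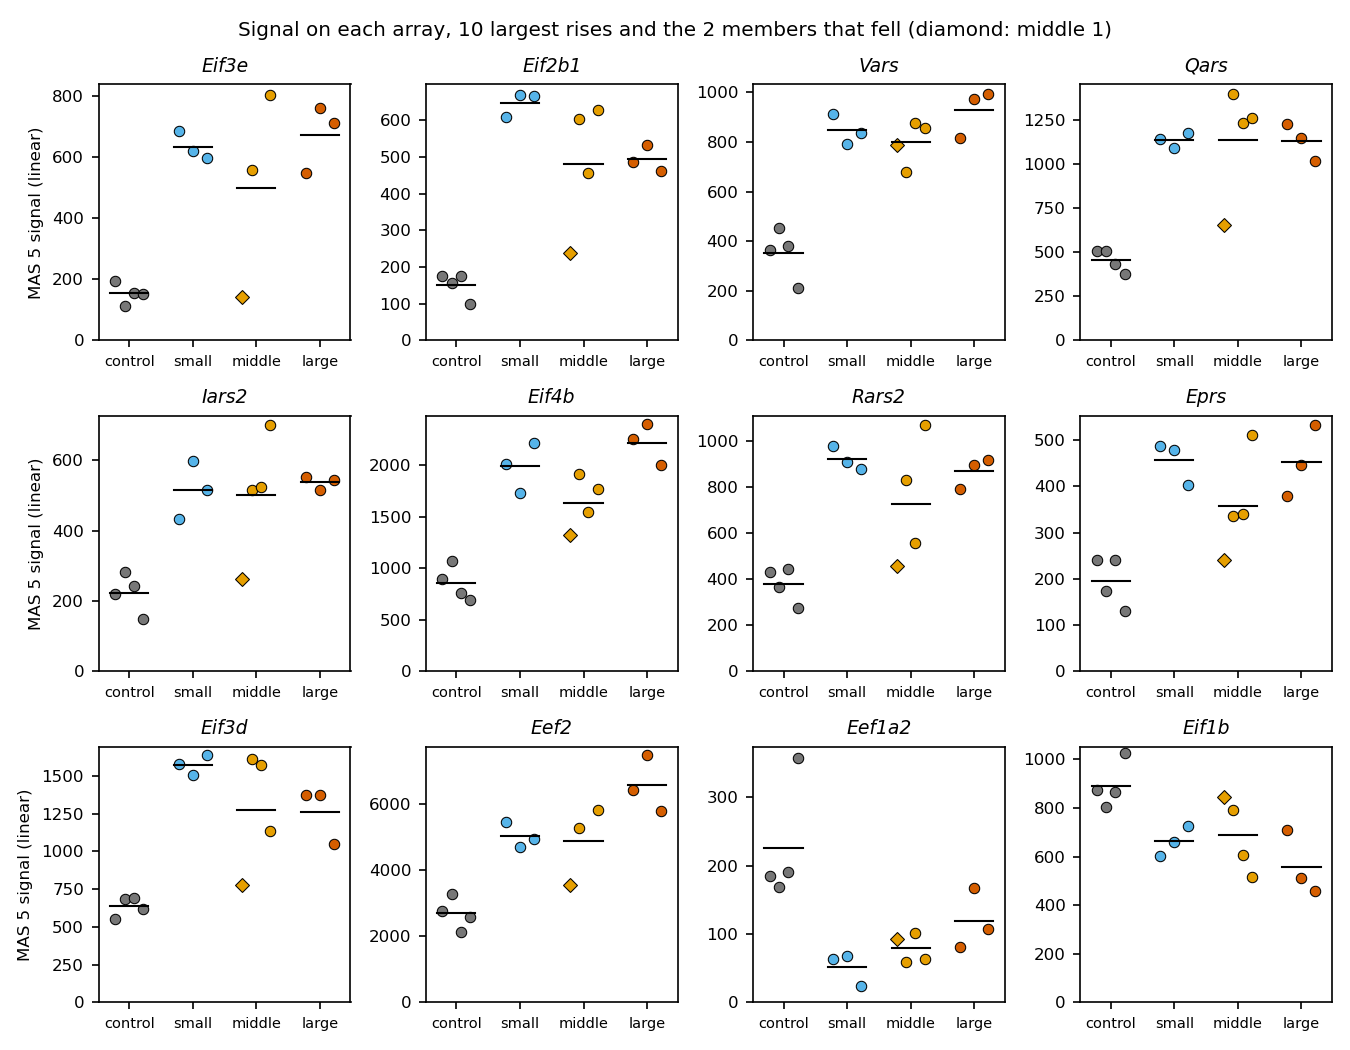
Signal (MAS 5, linear, y axes from 0) on each array for the 10 genes with the largest rise in all tumors and for Eef1a2 and Eif1b, which fell. Points are arrays, horizontal lines group means, and the diamond is middle-sized tumor 1, which lies lowest of the tumors in 9 of the 10 risers. Middle-sized tumor 3 has no value for Eif3e and Eef2.

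Eef1akmt1, which encodes a methyltransferase of eEF1A, was 65.9 to 108 in control lung. It was called in the small pools, at 149, 181 and 237 (log2 fold change 1.00, adjusted p = 0.0212), against 0.28 and 0.24 in the other sizes, and the differences between the sizes were not called (adjusted p = 0.767 and 0.589). Eef1b2, Eef1g, the kinase gene Eef2k and Eif5a were below the filter, reaching 75.9 at most, and were not tested.

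Of 17 genes of cytosolic synthetases, all of which passed the filter, 10 were higher and none lower in all tumors (median log2 fold change 0.47). The shares over all probe sets were 23.6% higher and 21% lower. Vars, which charges valine tRNA, read 365, 454, 379 and 213 in the control lungs, 914, 791 and 834 in the small pools, 787, 679, 874 and 856 in the middle-sized tumors and 816, 972 and 992 in the large tumors. It rose 2.42-fold (log2 fold change 1.33, SE 0.16, adjusted p = 1.38e-05) without overlap, middle-sized tumor 1 included. Qars, for glutamine, read 504, 508, 435 and 376 in the control lungs, 1140.5, 1091 and 1177 in the small pools, 655, 1399, 1231 and 1258 in the middle-sized tumors and 1229, 1145 and 1019 in the large tumors, and rose 2.49-fold (log2 fold change 1.31, SE 0.17, adjusted p = 2.22e-05). Eprs, which joins the glutamate and proline enzymes in a single protein, read 240.0, 175, 241 and 129.6 in the control lungs, 487, 479 and 404 in the small pools, 240.2, 337, 341 and 511 in the middle-sized tumors and 379.5, 446 and 533 in the large tumors. It rose 2.12-fold (log2 fold change 1.12, SE 0.20, adjusted p = 0.00046), and middle-sized tumor 1 lay at the top of the control range.

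The other rises were 0.94 for Hars, 0.93 for Iars, 0.84 for Gars, 0.68 for Sars, 0.50 for Nars, 0.47 for Lars and 0.45 for Rars, the enzymes for histidine, isoleucine, glycine, serine, asparagine, leucine and arginine. Their adjusted p values ran from 0.0013 for Iars to 0.0335 for Nars. Hars, for example, was 76.4 to 106 in control lung and 81.6 lowest, 173 median and 285 highest over the tumors, and Iars was 295 to 426 and 383 lowest, 732 median and 932 highest. In both genes 9 of 10 tumors exceeded every control.

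The remaining 7 cytosolic genes, for methionine, threonine, cysteine, tyrosine, lysine, alanine and tryptophan, were not called. Their log2 fold changes were 0.34 for Mars1 (adjusted p = 0.0728), 0.25 for Tars (adjusted p = 0.292), 0.04 for Cars (adjusted p = 0.892), 0.02 for Yars (adjusted p = 0.916), -0.15 for Kars (adjusted p = 0.265), -0.27 for Aars (adjusted p = 0.34) and -0.59 for Wars (adjusted p = 0.0801). Aars was 179, 238, 247 and 252 in the control lungs and 128 lowest, 182 median and 307 highest over the tumors, with 5 tumors below and 2 above all controls. Tars overlapped as well, with 211 to 274 and 193 to 425. Kars lay near the expression limit of 70, at 49.2 to 102 in control lung and 20.9 to 92.0 in tumors, so most of its values were set to 70 and a change below that was not detectable. Wars, the enzyme for tryptophan and a known interferon response gene, was 707 to 1792 in control lung and 427 to 1086 in tumors in its brightest probe set.

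Vertebrate cytosolic synthetases include a group bound together in a multisynthetase complex. Of its 7 members tested (Eprs, Iars, Kars, Lars, Mars1, Qars and Rars) 5 were higher, and of the 10 outside it 5 were higher. Of all probe sets 23.6% were called higher. The median log2 fold changes were 0.47 and 0.37. The difference between the groups was not tested.

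Of 5 mitochondrial synthetases, 3 were higher, beside 23.6% of all probe sets. Iars2, for mitochondrial isoleucine tRNA, read 220.1, 284, 243 and 148 in the control lungs, 433, 599 and 515 in the small pools, 262, 516, 525 and 699.8 in the middle-sized tumors and 552, 515 and 544 in the large tumors. It rose 2.31-fold (log2 fold change 1.22, SE 0.22, adjusted p = 0.000473), and middle-sized tumor 1 was the one tumor within the controls. Rars2, for arginine, read 432, 366, 444 and 273 in the control lungs, 975, 907 and 878 in the small pools, 455, 829, 554 and 1069 in the middle-sized tumors and 791, 894 and 914 in the large tumors, and rose 2.18-fold (log2 fold change 1.14, SE 0.19, adjusted p = 0.000277) with every tumor above every control. Tars2 rose by 0.73 (adjusted p = 0.00901), while Fars2 (0.30, adjusted p = 0.0774) and Sars2 (0.04, adjusted p = 0.885) were not called. The cytosolic partner of Tars2 was not called, and the cytosolic partner of Sars2, Sars, was higher.

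**Figure D5:**
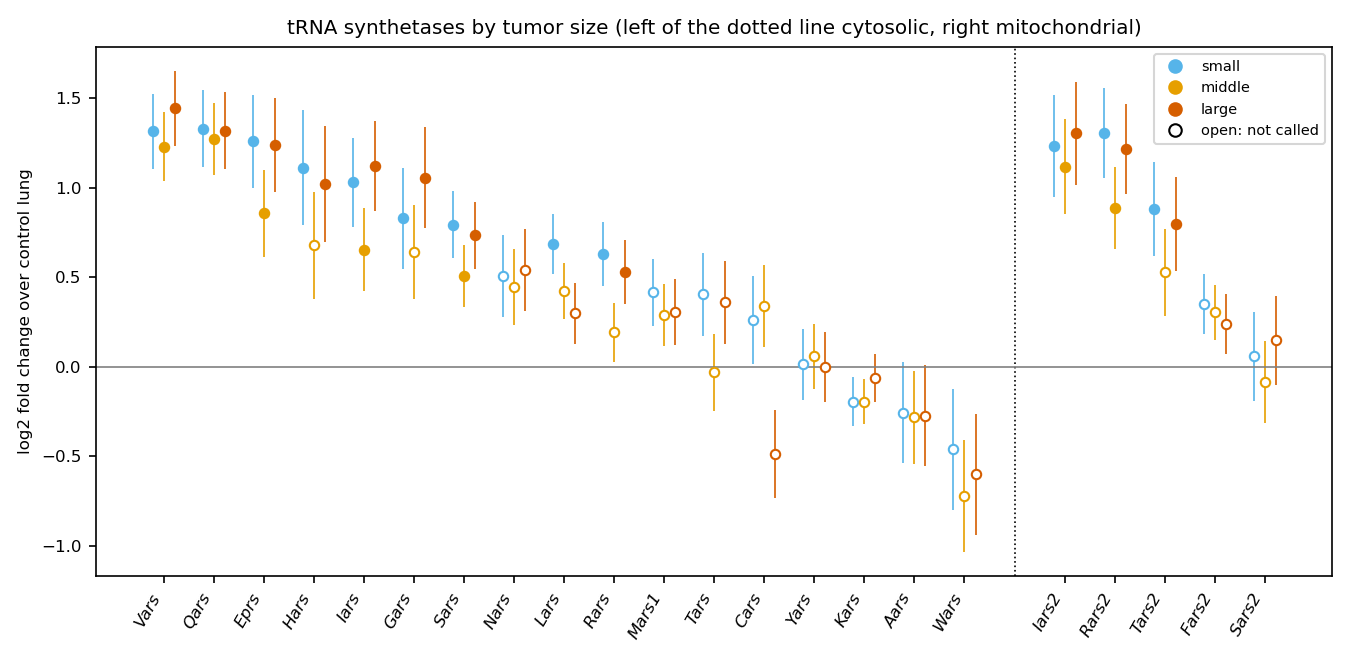
Log2 fold change over control lung (y axis) of 17 cytosolic and 5 mitochondrial synthetase genes in small pools, middle-sized and large tumors, with standard errors as bars. Filled points were called at an adjusted p under 0.05 and open points were not. Vars, Qars, Eprs, Iars, Sars, Iars2 and Rars2 are filled at all sizes, while Nars and the 7 genes from Mars1 to Wars are open at all sizes.

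Several synthetase genes are known targets of ATF4, the transcription factor of the amino acid response, which binds composite sites with the core TGATGNAA. On both strands this core was present in 7 of the 56 genes (12.5%) and in 4.51% of all genes with a window. It was found in 5 of 15 synthetase genes, namely Aars, Gars, Iars, Tars and Yars, and in 2 of 41 other genes, Eef2k and Eif2s3x. None of the 3 motifs searched contains another. The 5 synthetase windows are shown, with 80 bases before and 30 from the start, since 3 of these genes (Aars, Tars and Yars) were among the 7 that were not called. Capitals mark the core, read on either strand, and in Iars and Tars also the E-box. Upstream of the printed bases, the Aars window also holds an E-box at -146 and another core at -112.
Aars: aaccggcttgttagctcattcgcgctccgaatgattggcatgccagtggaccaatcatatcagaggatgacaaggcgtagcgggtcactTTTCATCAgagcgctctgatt
Gars: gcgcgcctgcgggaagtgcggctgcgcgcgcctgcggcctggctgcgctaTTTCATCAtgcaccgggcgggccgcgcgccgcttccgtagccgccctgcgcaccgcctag
Iars: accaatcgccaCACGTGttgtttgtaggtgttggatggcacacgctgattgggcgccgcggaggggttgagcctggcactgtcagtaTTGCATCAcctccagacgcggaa
Tars: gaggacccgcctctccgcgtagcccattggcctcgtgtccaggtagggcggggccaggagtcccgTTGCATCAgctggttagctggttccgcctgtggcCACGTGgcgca
Yars: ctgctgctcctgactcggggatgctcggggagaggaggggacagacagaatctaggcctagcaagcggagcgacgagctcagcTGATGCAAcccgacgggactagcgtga
They lie at chr8:111033762-111033871 (plus strand), chr6:55037921-55038030 (plus strand), chr13:49682050-49682159 (plus strand), chr15:11399629-11399738 (minus strand) and chr4:129189823-129189932 (plus strand) (GRCm38.p6, RefSeq). Gars and Iars, with the core, rose by 0.84 and 0.93, and the other 3 stood at -0.27, 0.25 and 0.02.

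By size, 33 of the 63 genes were higher and 1 lower in the small pools, where 19.9% of all probe sets were higher and 16.7% lower. In the middle-sized tumors 22 were higher and 1 lower (all probe sets 15.8% and 16.4%), and in the large tumors 32 and 2 (19.8% and 18.3%). The count of 22 was 14 without control lung 2, 13 without middle-sized tumor 2, 12 when only the groups compared entered the fit and 7 by the methods' t-test after adjustment. Without the 3 arrays with Xist above 70, the 33 of the small pools became 20 and the 32 of the large tumors 19. That setting leaves smaller groups, and the part of group size in the lower counts was not tested. Shares of all probe sets called are not given for these alternative settings. The median log2 fold changes of the 63 genes were 0.54, 0.46 and 0.53, and those of all probe sets 0.00, 0.02 and 0.07. Eif2b1, for example, was higher by 2.14, 1.61 and 1.74, and Eif3e by 2.07, 1.40 and 2.14. Since the sizes share their controls, a low or high control value enters all of them.

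With 1 probe set for each gene, no gene of translation was called between sizes. With every probe set tested unfiltered the third probe set of Eif4ebp2 was called, on values set to 70 in the smaller tumors, as given above. Between small pools and middle-sized tumors 0% of all probe sets were called, between small pools and large tumors 0.0289% (2 of 6914), and between middle-sized and large tumors 0%. At an unadjusted p under 0.05, limma marked 3, 3 and 5 of the 63 genes, against 6.49%, 8.1% and 9.79% of all probe sets, and the methods' t-test marked 3, 5 and 3 before and 0 after adjustment. The smallest adjusted p were 0.766 (Rars), 0.462 and 0.334 (both Cars). Cars, for cysteine, read 71.3, 76.4, 141 and 130.0 in the control lungs, 129, 140.2 and 95.3 in the small pools, 113, 141, 102 and 156 in the middle-sized tumors and 74.0, 19.0 and 44.9 in the large tumors. All 3 large tumors lay below the other tumors, and the difference from the middle-sized tumors was 0.83 on the log2 scale with signals set to at least 70 (SE 0.25).

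Of the 17 genes with several probe sets, 11 had more than 1 above the filter, and some of these did not give the same call. In a fit over all probe sets above the filter, the brightest probe set of Wars changed by -0.59 (SE 0.26, adjusted p = 0.0814), the second by -0.51 (SE 0.18, adjusted p = 0.0307), which was called lower, and the third by -0.26 (SE 0.21, adjusted p = 0.344). The called one was 593, 646, 631 and 634 in the control lungs and 302 lowest, 435 median and 593 highest in the tumors. In Eif1ax the brighter probe set rose by 0.73 (SE 0.20, adjusted p = 0.00804) and the other changed by 0.10 (SE 0.13, adjusted p = 0.569). For Eif4e2 the values were 0.68 (SE 0.18, adjusted p = 0.00602) and, with signals mostly below 70, 0.11 (SE 0.12, adjusted p = 0.5). Eif4ebp2 gave 0.21 (SE 0.12, adjusted p = 0.158), 1.03 (SE 0.28, adjusted p = 0.00828) and 0.13 (SE 0.10, adjusted p = 0.297).

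Uncalled probe sets of Yars, at 0.02 (SE 0.15, adjusted p = 0.917) and -0.26 (SE 0.17, adjusted p = 0.233), and of Sars2, at 0.04 (SE 0.19, adjusted p = 0.887) and -0.01 (SE 0.23, adjusted p = 0.971), had opposite signs. The probe sets of Eif1a, Eif2b5 and Eif4b were called higher in both cases, with 0.90 and 1.13 for Eif1a, 0.66 and 0.77 for Eif2b5, and 1.19 and 1.49 for Eif4b. Neither probe set of Eif2s2 or of Eif5b was called.

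The wider machinery was read from 4 lists. Of 18 tested partners and regulators of initiation, 5 were higher and none lower, near the 23.6% of all probe sets called higher. Pabpc4 and Pabpc1, poly(A)-binding proteins that bridge the ends of the mRNA, rose by 2.25 and 1.03 (adjusted p = 5.38e-06 and 0.00147), and Abce1, which recycles ribosomes, by 0.91 (adjusted p = 0.000413). Pabpc4 read 289, 269.5, 329.7 and 319 in the control lungs, 1682, 1449 and 1589 in the small pools, 474, 1376, 1382 and 1546 in the middle-sized tumors and 1833, 2109 and 1287 in the large tumors, and middle-sized tumor 1 was again the lowest tumor, though above the controls. The kinase gene Mtor was not called (0.25, adjusted p = 0.287).

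Among 10 further elongation, termination and mitochondrial factors 5 were higher and none lower, beside 23.6% higher and 21% lower over all probe sets. Tufm, the mitochondrial elongation factor that delivers tRNA, rose by 1.13 (adjusted p = 0.000138), and Gspt1, a release factor, by 0.93 (adjusted p = 0.00854). Of 8 partners of the synthetases 6 were higher and none lower, beside the same shares, with a median log2 fold change of 0.86. Dtd1, which removes D-amino acids from tRNA, rose by 1.35, Farsa, a subunit of the phenylalanine enzyme, by 1.23, and Trnt1, which adds the CCA end to tRNAs, by 1.07 (adjusted p = 0.00041, 0.000172 and 0.000378). Scaffold genes of the multisynthetase complex, Aimp1 and Aimp2, rose by 0.69 and 0.94 (adjusted p = 0.00315 and 0.000113).

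Of 16 tested genes of the amino acid and integrated stress response, 5 were higher and 3 lower, with a median log2 fold change of -0.05, beside 23.6% higher and 21% lower over all probe sets. Psat1, an enzyme of serine synthesis, rose by 2.56 (adjusted p = 2.24e-06), and Slc7a5, the importer of large neutral amino acids, by 1.65 (adjusted p = 4.98e-05). Asns, which makes asparagine, was 697 to 749.7 in control lung and 789.7 to 1471 in tumors (log2 fold change 0.65, SE 0.14, adjusted p = 0.00194). By contrast Ddit3, the stress factor CHOP, fell by 1.34 and Nupr1, a stress-induced nuclear protein, fell by 1.21 on the log2 scale (adjusted p = 3.51e-06 and 0.00865). Ddit3 was 154, 174, 176 and 279.9 in the control lungs and 19.0 lowest, 64.5 median and 99.1 highest over the tumors, with no overlap. Nupr1 read 1259.7 in middle-sized tumor 1, within the control range of 851 to 1289.5, and 177 to 609.9 in the other tumors with a value. The gene of ATF4 itself was not called (-0.29, adjusted p = 0.168), at 904 to 1939.8 in control lung and 789.6 to 1232 in tumors.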

How the data were processed

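The deposited values are MAS 5 signal intensities on a linear scale, which the authors computed for each array of the Murine Genome U74v2 type and scaled to a target of 250. Genome build and aligner have no bearing on arrays, and depth is not defined for them, so their number limits the precision. Trimmed at both ends, the mean signal was 249.1 to 249.6 on 13 arrays and 194.9 on middle-sized tumor 3, and 6796 to 7575 probe sets reached 70 on those 13 arrays and 5630 on that tumor. Its 3125 values at or below 1e-06 were treated as missing. Symbols came from the platform annotation, in which 10833 probe sets have 1 symbol, 396 several and 1193 none.

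From these intensities, log2 of the signal set to at least 70 was computed. Probe sets that reached 70 on 3 or more arrays were retained, with the one of highest mean for each symbol, and 6914 were tested with limma 3.58.1 (R 4.3.3), lmFit and eBayes with a trend, over the 4 groups. A gene was called at a Benjamini-Hochberg adjusted p under 0.05. Fold ratios are ratios of mean signals. All log2 fold changes understate changes that reach below 70. The steps were tested on simulated data. Alternatives covered the floor, normalization, filter, probe sets, near-zero values, spread, samples, the replicate block, the methods' unpaired t-test and each array left out. By the methods each array had its own animal, so replicate numbers do not pair arrays by animal. Correlations of same-numbered arrays ran from -0.229 to 0.135. Differently numbered arrays were not set beside them, so a shared effect of the number was not tested by these values.

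Named are all genes by role, with values on each array for the 10 largest rises and the genes that fell. Some paralogs, synthetases and genes whose probe sets disagree also have values on each array. The others have ranges or fold changes only. Members and lists were chosen with earlier results of these data known. Start regions came from RefSeq (GRCm38.p6).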

Additional observations from a re-analysis of the deposited data

Results flagged for a closer look

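Of 180 groups of 4 to 10 arrays examined over the genes tested, 21 held an array that stood apart from the others by Dixon's criterion. Its usual chance rate of about 1 of 20 groups need not hold here. Signals were set to at least 70, and the middle-sized tumors were examined alone and again among all tumors. In 11 of the 21 the array was middle-sized tumor 1 as the lowest. Its signal, with that of the next lowest tumor, was 429 and 749 for Eef1d, 141 and 549 for Eif3e, 283 and 494 for Eif1ax, 237 and 455 for Eif2b1, 655 and 1019 for Qars, 151 and 324 for Eif2b5, 1442 and 2106 for Eif3l, 262 and 433 for Iars2 and 219 and 319.9 for Sars, each over the 10 tumors or those with a value. Within the middle-sized tumors it stood apart for Qars again and for Eif3j1, at 852, with 1138 next.

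Middle-sized tumor 3 stood apart for Eif4g2, the highest tumor at 402 with 255 next, and for Eif4a2, the lowest at 2040.3 with 2708 next. Middle-sized tumor 2 was the highest tumor for Yars at 299 with 238 next. Large tumor 2 was the highest for Eef1a2 at 168 with 108 next, and large tumor 3 for Kars at 92.0, where every other tumor lay below 70. Among the control lungs, number 1 was the highest for Eif4a2 at 3059 and the lowest for Aars at 179, with 2531 and 238 next. Control lung 3 was the highest for Eif2ak4 at 95.9, the others being below 70. Control lung 4 was the highest for Eef1a2 at 357 and for Eif4e2 at 110.1, with 191 and 74.4 next.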

How the results depend on the processing

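Of the 39 genes called in all tumors, 27 kept the call under all 29 alternatives and none changed direction. Leaving out each array in turn gave 30 to 41 genes higher and 2 to 3 lower in all tumors, 25 to 35 higher and 1 to 1 lower in small pools, 13 to 33 and 1 to 2 in middle-sized tumors, 24 to 35 and 1 to 2 in large tumors, and 0 to 0 between sizes. Without the 3 arrays with Xist above 70, a setting chosen after seeing the data, 1 gene was lower in all tumors, 20 were higher in small pools, and 19 were higher and 1 lower in large tumors. Without middle-sized tumors 1 and 3, also chosen afterwards, 34 were higher in the middle-sized group. Fitting the compared groups alone gave 2 lower in small pools, 12 higher in middle-sized and 1 lower in large tumors. The methods' t-test gave 2 lower in small pools and 1 lower in large tumors at either threshold, 7 higher in middle-sized tumors after adjustment, and 3, 5 and 3 calls between sizes before it. The cause of these shifts was not tested, and the shares of all probe sets called in each alternative are not given here. With the replicate block, whose numbers do not pair arrays by animal, 34 were higher in all tumors, 31 in small pools, 18 in middle-sized and 29 in large tumors. Log2 fold changes of 5 genes without a call changed sign: Cars -0.14 (floor of 35), -0.24 (no floor), -0.0145 (1 median) and -0.12 to 0.20 (1 array left out), Eif2ak1 -0.0315 (1 median), -0.0331 (replicate block), -0.0109 (without middle-sized tumors 1 and 3) and -0.0797 to 0.13 (1 array left out), Eif2s3y -0.0615 to 0.59 (1 array left out), Sars2 -0.008 (1 median), -0.0539 (without middle-sized tumors 1 and 3), -0.0208 (without the Xist arrays) and -0.0998 to 0.24 (1 array left out), Yars -0.0249 (1 median) and -0.0869 to 0.11 (1 array left out). Calls lost in more than 2 alternatives were those of Eif3f, Eif2b5, Eif5, Eif2b4 and Nars. Signals below 70 carry no order, which limits Kars, Eif2s2, Eif3f, Eif2ak4, Eef1a2, Cars and Eif2s3y among others. The median of all probe sets stayed within 0.1 of 0 in every setting. "Only the groups compared" could not be applied to all tumors.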
